A study of Mus musculus with 4 samples.

Results

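Integrins and the leukocyte adhesion molecules that partner with them were followed in LPS-treated mouse macrophages. The genes were those with a single symbol beginning with Itga or Itgb, those named *Icam1* to *Icam5*, and the 9 genes *Vcam1*, *Pecam1*, *Selplg*, *Cd44*, *F11r*, *Jam3*, *Cd47*, *Ninj1* and *Alcam*. This gave 45 of the 19938 genes on the array, measured by 55 of its 26423 probes. They were 18 integrin alpha subunits, 9 integrin beta subunits, 5 immunoglobulin superfamily ligands (4 Icam genes and *Vcam1*), 8 junctional and other adhesion molecules, and 5 genes that share the symbol prefix but encode no integrin subunit. No probe was named *Icam3*.

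Both groups were peritoneal macrophages, phagocytes of the abdominal cavity, of wild-type C57BL/6 mice, which the study's methods describe as male and 6 to 8 weeks old. The cells were kept for 6 h with PBS, the control, or with 100 ng/ml LPS, the lipopolysaccharide of bacterial outer membranes, which macrophages sense through Toll-like receptor 4. Each group had 2 samples, each on its own single-colour Mouse OneArray Plus array. The labels call them biological replicates without naming separate mice or cultures, and p-values here reflect only the spread among samples, which may be technical. The question was which genes of this group differed between LPS and PBS. LPS replicate 1 was the dimmest array. Its median raw signal was 683 against 1026 to 1054 on the other 3 arrays, and 55.8% of its probes were above background (detection p under 0.05) against 61.7% to 63.3%. Quantile normalization set the arrays on 1 scale, and all levels are log2 signals on that scale. The groups were compared with limma, and p-values were adjusted over all 19938 genes (Benjamini-Hochberg), 642 of which were higher and 462 lower with LPS at an adjusted p under 0.05. All 9 macrophage markers measured, among them *Adgre1*, *Csf1r* and *Cd68*, were above background on all 4 arrays.

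Integrins are heterodimers of an alpha and a beta subunit that hold cells to matrix and to each other, and that switch between a bent, inactive and an extended, active form. On leukocytes the beta-2 integrins LFA-1 and Mac-1 bind ICAM-1 on other cells, and the alpha-4 integrin VLA-4 binds VCAM-1. Peritoneal macrophages are known for high Mac-1 and for an ICAM-2 level that distinguishes the large resident cells. ICAM-1 and VCAM-1 are known as targets of NF-kB in inflamed endothelium, while CD44, CD47 and PSGL-1 (*Selplg*) act in binding to hyaluronan, in restraint of phagocytosis and in rolling on selectins.

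The ligands *Icam1* and *Vcam1* rose with LPS, and no integrin subunit above background passed the test. Of the 45 genes, 3 passed with higher signals at an adjusted p under 0.05 (*Icam1*, *Vcam1* and *Itgb8*) and 0 with lower signals, where 3.22% of all genes were higher, 2.32% were lower and 5.54% passed in all. The third, *Itgb8*, was above background on no array. Before adjustment, 14 had a p under 0.05 in the same limma fit (11 higher and 3 lower), against 25.9% of all genes. The LPS arrays lay on 1 side of both PBS arrays for 26 genes, which is 57.8% of the set against 59.7% of all genes. Of these 26, 20 were higher and 6 lower, and over all genes 32.2% were higher and 27.5% lower. The median log2 difference was 0.20 in the set and 0.04 over all genes. Counting only genes above background on all 4 arrays, it was 0.13 in the set and 0.008 over all such genes. The arrays measure RNA from mixed cells, in which fewer cells of a type and less RNA per cell cannot be told apart.

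**Figure D1:**
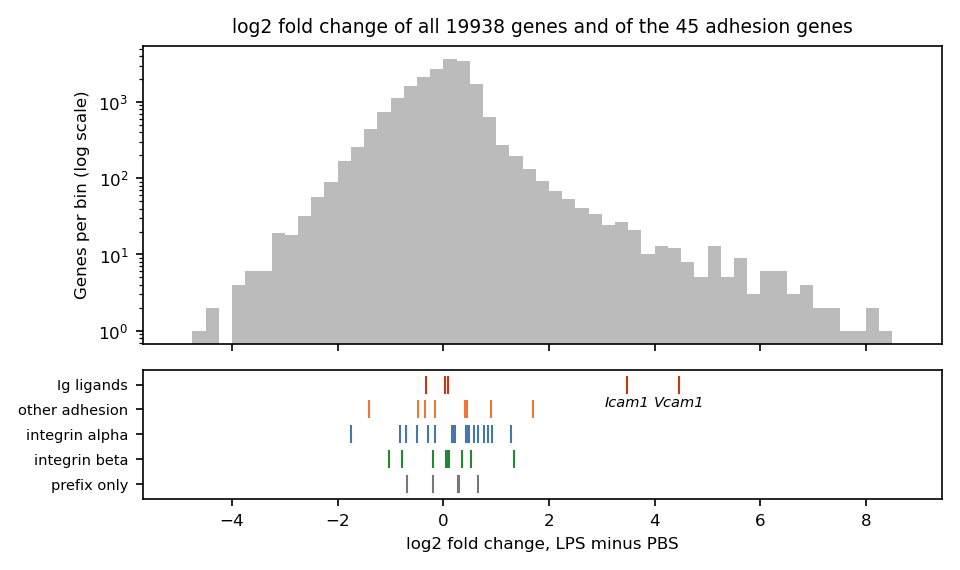
The upper panel gives the number of genes (log axis) per bin of log2 fold change, LPS minus PBS, for all 19938 genes. The ticks below mark the 45 adhesion genes in 5 classes: *Icam1* at 3.47 and *Vcam1* at 4.45 stand far to the right, and the other 43 lie between −1.74 and 1.69.

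Of the 45 genes, 28 were above background on all 4 arrays, 6 on some and 11 on none. Among the 28, 2 were higher (*Icam1* and *Vcam1*) and 0 lower, where 4.41% and 2.76% of the 11903 genes above background on all arrays were higher and lower. The LPS arrays lay on 1 side for 16 of the 28, or 57.1%, against 65.9% of those 11903 genes.

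The Icam genes are shown first by their promoters, because 3 of them, *Icam1*, *Icam4* and *Icam5*, follow each other on chromosome 9 and did not respond alike. The 250 bases before the annotated start (RefSeq, build GRCm38.p6, plus strand) are given 5′ to 3′, with capitals for matches to GGNNNTTCC on either strand, a loose form of the sites that NF-kB binds. The stretches are chr9:21015690-21015939 for *Icam1*, chr9:21029182-21029431 for *Icam4* and chr9:21031788-21032037 for *Icam5*.
Icam1: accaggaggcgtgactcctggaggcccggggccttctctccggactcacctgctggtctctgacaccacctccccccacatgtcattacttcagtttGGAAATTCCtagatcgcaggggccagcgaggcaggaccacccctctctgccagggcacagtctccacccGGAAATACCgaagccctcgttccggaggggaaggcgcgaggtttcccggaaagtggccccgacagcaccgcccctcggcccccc
Icam4: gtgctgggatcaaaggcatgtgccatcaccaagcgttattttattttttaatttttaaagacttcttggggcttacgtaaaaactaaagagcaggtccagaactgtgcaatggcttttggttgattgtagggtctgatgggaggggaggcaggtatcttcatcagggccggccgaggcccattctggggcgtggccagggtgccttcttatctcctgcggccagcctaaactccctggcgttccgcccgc
Icam5: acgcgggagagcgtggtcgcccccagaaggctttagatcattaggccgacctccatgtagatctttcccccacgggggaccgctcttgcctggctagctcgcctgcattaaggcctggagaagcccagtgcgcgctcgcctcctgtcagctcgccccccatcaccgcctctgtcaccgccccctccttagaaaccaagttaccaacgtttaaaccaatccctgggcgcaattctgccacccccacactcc
*Icam1* had a match from 153 to 145 bases before the start, which reads as a match on both strands, and another from 84 to 76 bases before it on the minus strand. The windows of *Icam4* and *Icam5*, searched to 50 bases after the start, had none of these letters. The motif was found in 18.5% of 32851 RefSeq promoters of 300 bases, and in those of 6 of the 31 adhesion genes that had a promoter in the table (*F11r*, *Icam1*, *Itga2*, *Itga5*, *Itgb1* and *Itgb2l*). Of these 6, *Icam1* alone passed the test. *Vcam1* was not among the 31. A stricter NF-kB consensus, searched on both strands, was held by 8.46% of promoters and, of the adhesion genes, by *Itga3*, so that it did not overlap the matches printed for *Icam1*. TATAAA, searched on both strands, was held by 13.6% and, of the adhesion genes, by *Icam1* and *Nmrk2*. The printed 250 bases of *Icam1* do not hold it, so its match lay within the window that ran to 50 bases after the start. A match is a string of letters and not a measured site.

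*Icam1*, the immunoglobulin superfamily receptor that beta-2 integrins bind, had raw signals of 13087 and 9218 with PBS and of 114251 and 118758 with LPS. After normalization its log2 signals were 13.44 and 13.19 with PBS and 16.81 and 16.75 with LPS. Both LPS arrays lay far above both PBS arrays and close to each other. The difference was 3.47 on the log2 scale (SE 0.22, 11.1-fold, limma adjusted p = 0.00429), the 130th highest of all genes.

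*Vcam1*, the ligand of alpha-4 integrins, had raw signals of 4153 and 4452 with PBS and of 56695 and 127161 with LPS. Its log2 signals were 11.81 and 12.04 with PBS and 15.90 and 16.85 with LPS. The groups were again well apart, and LPS replicate 2 was brighter than replicate 1 by 0.95. The difference was 4.45 (SE 0.36, 21.9-fold, limma adjusted p = 0.0068), the 72nd highest of all genes. Without PBS replicate 2 neither gene passed (*Icam1* 3.41, adjusted p = 0.0606; *Vcam1* 4.68, adjusted p = 0.0738), and without PBS replicate 1 *Vcam1* did not (4.36, adjusted p = 0.0618).

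Mesothelial cells and fibroblasts, which line the peritoneum and can also express both ligands, were checked through 13 markers. Of these, 7 were above background on all arrays, 4 on some and 2 (*Krt18* and *Col1a1*) on none. Their normalized signals summed to 197000 and 272000 with PBS and to 106000 and 333000 with LPS. *Dcn* made up the largest part of each sum. The sum differed more between the LPS arrays than between the groups. Of the 13, *Pdgfrb* passed the test (1.98 higher, limma adjusted p = 0.0134). The *Icam1* signal was alike on both LPS arrays and the *Vcam1* signal was higher on the array with more of these markers, and their part in the result was not tested. The 10 endothelial markers summed to 138000 and 143000 with PBS and 132000 and 142000 with LPS, and 0 passed the test. These sums came mostly from *Plvap* (16.86 and 16.96 with PBS, 16.75 and 16.93 with LPS). The LPS arrays lay above both PBS arrays for 6 of the 10 and below them for 1, against 32.2% and 27.5% of all genes. The median difference of the 10 was 0.37, and *Tek* was above background on no array.

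The other 3 Icam genes did not pass. *Icam2*, a marker of large peritoneal macrophages, had log2 signals of 12.11 and 10.97 with PBS and 11.70 and 10.70 with LPS (difference −0.34, 95% interval −1.65 to 0.97, limma adjusted p = 0.702). Replicate 1 was higher than replicate 2 in both groups, and the groups overlapped. *Icam4*, a ligand known from human red cells, and *Icam5*, known from neurons of the telencephalon, were dim. *Icam4* had 9.33 and 9.20 with PBS and 9.52 and 9.19 with LPS (0.08, interval −0.50 to 0.66), and *Icam5* 9.41 and 9.42 with PBS and 9.59 and 9.30 with LPS (0.03, interval −0.53 to 0.59). These intervals do not reach the sizes measured for *Icam1* and *Vcam1*.

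**Figure D2:**
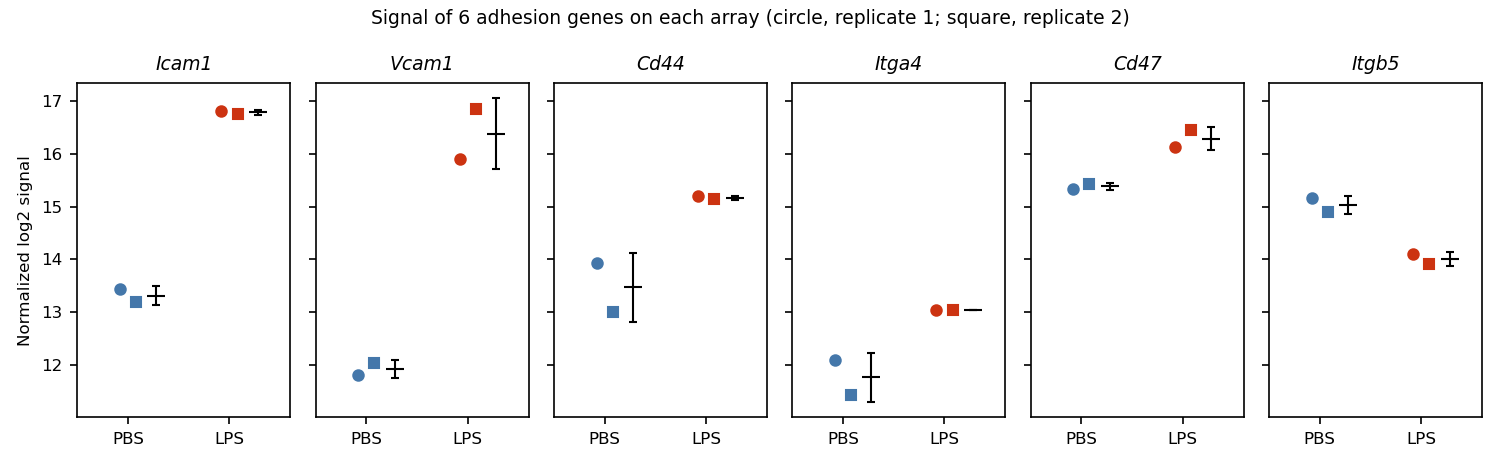
Normalized log2 signal of 6 adhesion genes on each array, with circles for replicate 1 and squares for replicate 2, and a bar with the mean and SD of the 2 arrays beside each group. The LPS arrays lie above both PBS arrays for *Icam1*, *Vcam1*, *Cd44*, *Itga4* and *Cd47* and below them for *Itgb5*; of the 6, *Icam1* and *Vcam1* passed the test.

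Among the junctional and other adhesion molecules, 0 of 8 passed, and the nearest were *Cd44* and *Cd47*. *Cd44*, the hyaluronan receptor, had raw signals of 18309 and 8260 with PBS and 33680 and 38349 with LPS. Its log2 signals were 13.94 and 13.01 with PBS and 15.19 and 15.14 with LPS. The groups did not overlap, and the PBS arrays differed by 0.93. The difference of 1.69 (SE 0.35, 3.23-fold) missed the threshold (limma adjusted p = 0.0637). It passed in 1 of 15 alternatives, at 0.0479, when the test was limited to the 13950 genes above background on at least 2 arrays. The limma adjusted p was 0.101 with 75th percentile scaling and 0.119 with the second deposited table. *Cd47*, the ligand of the phagocytic brake SIRP-alpha, had log2 signals of 15.34 and 15.43 with PBS and 16.13 and 16.45 with LPS. The groups did not overlap, and the difference of 0.90 (SE 0.22, 1.87-fold) had a limma adjusted p of 0.0909.

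*Pecam1*, an adhesion molecule of endothelial junctions, platelets and leukocytes, had 10.39 and 10.04 with PBS and 10.76 and 10.57 with LPS (0.45, adjusted p = 0.29). It was the third gene of this class whose LPS arrays both lay above the PBS arrays, and its 2 other probes were above background on no array. *Alcam*, the CD6 ligand, had 13.58 and 12.92 with PBS and 13.82 and 13.51 with LPS on its brightest probe (0.41, adjusted p = 0.423). Its dimmer probe, also above background on all arrays, differed by −0.73, so that the sign for this gene depends on the probe.

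*Selplg*, which encodes the selectin ligand PSGL-1, had 16.42 and 15.39 with PBS and 15.78 and 15.35 with LPS (−0.34, adjusted p = 0.611). *Ninj1*, whose protein ruptures the plasma membrane in lytic cell death and was first described as a nerve adhesion molecule, had 17.87 and 17.43 with PBS and 17.54 and 16.81 with LPS (−0.47, adjusted p = 0.407). In both genes the groups overlapped and replicate 1 was the higher array of each group. *Jam3*, a junctional adhesion molecule that binds Mac-1, had 12.10 and 13.34 with PBS and 10.21 and 12.42 with LPS (−1.41, 95% interval −3.49 to 0.68, adjusted p = 0.332). *F11r*, which encodes the junctional molecule JAM-A, had 10.22 and 10.81 with PBS and 9.43 and 11.27 with LPS (−0.16, adjusted p = 0.885), and was not above background on LPS replicate 1. Both junctional genes were lowest on LPS replicate 1, and their intervals were among the widest of the set.

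**Figure D3:**
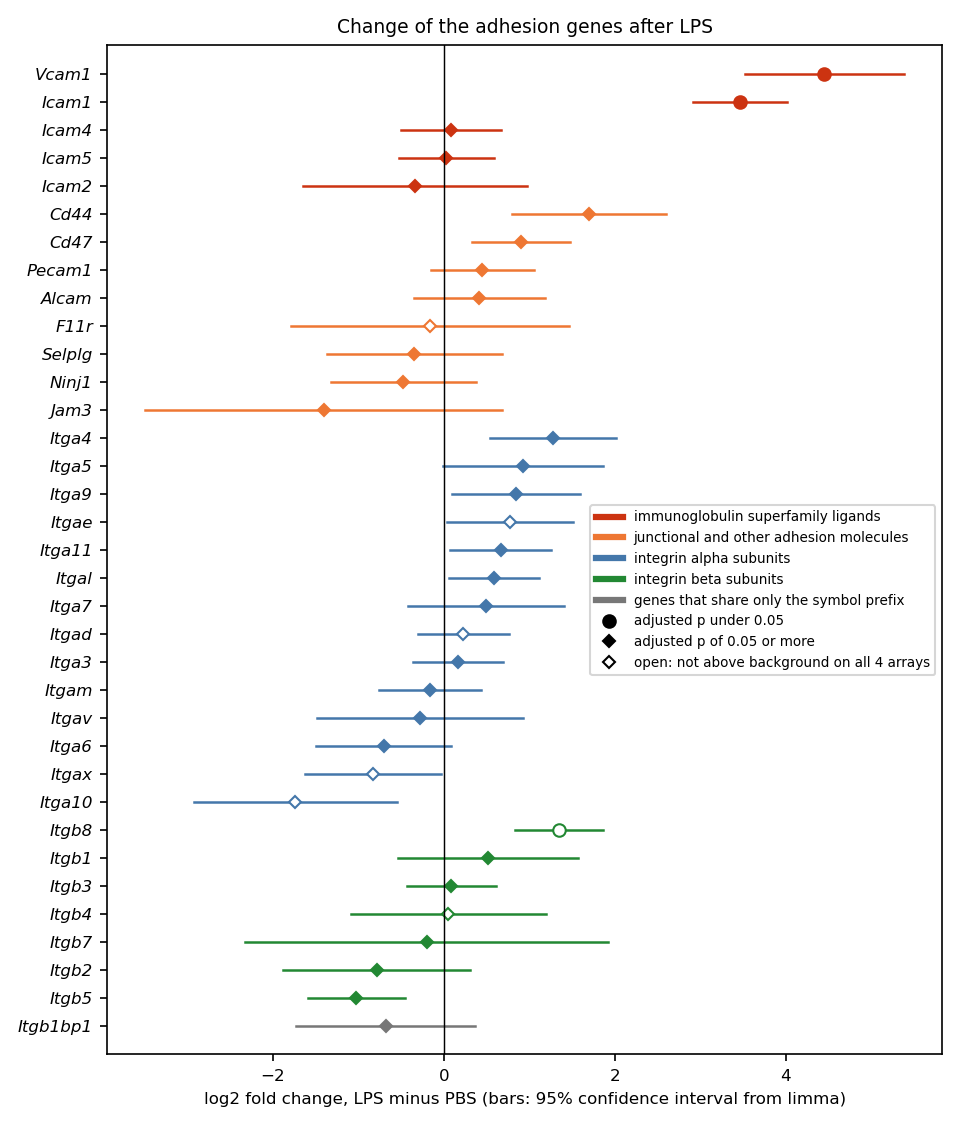
log2 fold change, LPS minus PBS, of the 35 adhesion genes above background on at least 1 array or past the test, ordered by class and size, with 95% confidence intervals from limma. Large circles mark an adjusted p under 0.05 (*Vcam1*, *Icam1* and *Itgb8*) and open symbols mark genes not above background on all 4 arrays. The differences of *Itga4* at 1.28 and *Itgb5* at −1.02 are the largest among integrin subunits above background on all arrays.

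Of the 18 alpha subunits, 14 were above background on at least 1 array and 0 passed the test in either direction. Before adjustment 7 of the 18 had a p under 0.05 (25.9% over all genes), of which *Itga4*, *Itga9*, *Itga11*, *Itgae* and *Itgal* were higher and *Itga10* and *Itgax* lower. The LPS arrays lay on 1 side of the PBS arrays for 13 of the 18 (10 higher, 3 lower), or 72.2% against 59.7% of all genes, and the median difference was 0.33 against 0.04.

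*Itga4*, the alpha chain of VLA-4 and of the mucosal homing integrin alpha4beta7, had raw signals of 5130 and 3014 with PBS and 6596 and 8802 with LPS. Its log2 signals were 12.10 and 11.43 with PBS and 13.04 and 13.04 with LPS. It was the largest positive difference among the alpha subunits, 1.28 (SE 0.29, 2.42-fold), and did not pass (limma adjusted p = 0.0736). Its partners did not move beyond their spread. *Itgb1*, the common beta-1 chain, had 16.43 and 15.39 with PBS and 16.67 and 16.17 with LPS (0.52, adjusted p = 0.463; its dimmer probe 0.41). *Itgb7* had 13.55 and 11.51 with PBS and 13.12 and 11.54 with LPS (−0.20, interval −2.33 to 1.92). It was thus higher on replicate 1 than on replicate 2 by 2.05 with PBS and 1.58 with LPS.

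*Itgb7* is also expressed by lymphocytes. The 14 T and NK cell markers summed to 100000 and 66100 with PBS and 56000 and 45800 with LPS, higher on replicate 1 of each group. These sums came mostly from *Il7r* (16.43 and 15.76 with PBS, 15.33 and 14.80 with LPS). Of the 14 markers, 11 were higher on replicate 1 with PBS and 9 with LPS. Of these markers 5 were above background on all arrays. They were *Cd3e* (difference −0.43), *Il7r* (−1.03), *Cd2* (−0.008), *Cd3g* (0.32) and *Cd8a* (0.53), and the median of the 14 was 0.03. *Cd3d*, *Cd4*, *Cd5*, *Ncr1*, *Klrb1c* and *Nkg7* were above background on none, and 2 of the 14 passed the test, both higher (*Lck* and *Gzmb*). The 7 B cell markers summed to 19300 and 17400 with PBS and 10800 and 9930 with LPS, with 1 past the test (*Cd22*, lower) and *Ms4a1* and *Blk* among those above background on no array. The part of these cells in the values of *Itgb7*, *Itga4* and *Itgal* was not tested.

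*Itgal*, the alpha chain of LFA-1, had 14.09 and 14.09 with PBS and 14.78 and 14.59 with LPS (0.59, SE 0.21, limma adjusted p = 0.165). *Itgam*, the alpha chain of Mac-1, had 16.50 and 16.15 with PBS and 16.27 and 16.07 with LPS (−0.16, interval −0.76 to 0.44). *Itgal* was higher on both LPS arrays, whereas the groups overlapped for *Itgam*. Their shared partner *Itgb2*, the beta-2 chain, had 18.34 and 18.07 with PBS and 16.82 and 18.00 with LPS. Both LPS arrays lay below the PBS arrays, replicate 2 by a small margin, and the difference of −0.79 (SE 0.43) did not pass (adjusted p = 0.307). It ranged from −1.37 without LPS replicate 2 to −0.19 without LPS replicate 1. With all arrays kept it was −0.26 with 75th percentile scaling, −0.33 with the second deposited table and −0.47 with cyclic loess. Its size thus varied both with the array left out and with the scaling.

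The 2 other partners of *Itgb2* were dim. *Itgax*, the alpha chain CD11c, had 9.02 and 9.60 with PBS, both above background, and 8.22 and 8.74 with LPS, neither above background. No minimum fold is given, because the lowest value above background on LPS replicate 1 (9.43) was higher than the signal on PBS replicate 1. *Itgax* did not pass the test (measured difference −0.83, limma adjusted p = 0.183). *Itgad*, the alpha chain CD11d, was above background on 1 array of each group (9.08 and 8.98 with PBS, 9.35 and 9.17 with LPS, difference 0.23). *Itgam*, *Itgax* and *Itgad* follow each other on chromosome 7.

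*Itga5*, the alpha chain of the fibronectin receptor VLA-5, had 11.84 and 11.57 with PBS and 12.16 and 13.11 with LPS (0.93, adjusted p = 0.197). Both LPS arrays were higher, replicate 2 by more. *Itga6*, the alpha chain of the laminin receptor VLA-6, had 12.89 and 12.24 with PBS and 12.05 and 11.67 with LPS (−0.70, adjusted p = 0.229), with both LPS arrays below both PBS arrays. *Itga9*, whose integrin binds tenascin-C and osteopontin, had 10.21 and 10.12 with PBS and 10.66 and 11.35 with LPS (0.84, adjusted p = 0.163). The groups did not overlap for any of these 3 subunits, which all pair with *Itgb1* or, for *Itga6*, also with *Itgb4*.

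*Itga3*, a laminin receptor chain, had 11.36 and 11.26 with PBS and 11.40 and 11.56 with LPS (0.17, adjusted p = 0.636). *Itga7*, a laminin receptor chain known from muscle, had 10.65 and 9.70 with PBS and 10.68 and 10.65 with LPS (0.49, adjusted p = 0.422). In both genes the LPS arrays lay above the PBS arrays, the lower LPS array by under 0.05. *Itga11*, a collagen receptor chain known from fibroblasts, had 10.40 and 10.16 with PBS and 11.08 and 10.81 with LPS (0.66, adjusted p = 0.161), and its dimmer probe differed by 0.62. *Itgae*, the alpha chain CD103, had 8.82 and 9.31 with PBS and 9.61 and 10.07 with LPS (0.77, adjusted p = 0.179), above background on 1 PBS array and both LPS arrays. *Itga10*, a collagen receptor chain known from cartilage, had 8.19 and 9.24 with PBS and 6.55 and 7.40 with LPS. Only the second PBS value was above background, so that no fold is given; the measured difference was −1.74 (adjusted p = 0.105).

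*Itgav*, the alpha chain of the vitronectin receptors, had 15.51 and 15.24 with PBS and 14.42 and 15.76 with LPS (−0.28, interval −1.49 to 0.93). LPS replicate 1 was the lowest of the 4 arrays and LPS replicate 2 the highest. Its partner *Itgb3* had 13.26 and 13.23 with PBS and 13.40 and 13.28 with LPS (0.09, interval −0.43 to 0.61), one of the narrowest intervals of the set. Its other partner *Itgb5* had the largest negative difference among the beta subunits. *Itgb5* had raw signals of 41731 and 27514 with PBS and 14822 and 16050 with LPS, and log2 signals of 15.16 and 14.90 with PBS and 14.10 and 13.91 with LPS. The groups did not overlap, and the difference of −1.02 (SE 0.22, 2.03-fold lower) missed the threshold (limma adjusted p = 0.0686). Its 2 dimmer probes, both above background on all arrays, differed by −1.06 and −0.74. A beta subunit known from epithelium, *Itgb4*, was above background on PBS replicate 1 alone (9.50 and 8.29 with PBS, 9.16 and 8.73 with LPS, difference 0.05).

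By heterodimer, the alpha and the beta chain thus had differences of opposite sign for LFA-1 (0.59 and −0.79), VLA-6 (−0.70 and 0.52), alpha4beta7 (1.28 and −0.20), alphaVbeta3 (−0.28 and 0.09), alphaEbeta7 (0.77 and −0.20) and CD11d/CD18 (0.23 and −0.79). They had the same sign for Mac-1 (−0.16 and −0.79), CD11c/CD18 (−0.83 and −0.79), VLA-4 (1.28 and 0.52), VLA-5 (0.93 and 0.52) and alphaVbeta5 (−0.28 and −1.02). None of these 14 chains passed the test at the adjusted threshold. The signs of *Itgam*, *Itgad*, *Itgav*, *Itgb1*, *Itgb3* and *Itgb7* changed under at least 1 alternative processing, so the sorting of their dimers is not settled.

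Several adhesion genes differed more within a group than between groups, in the same arrays as markers of other cells. LPS replicate 1 minus LPS replicate 2 was −1.84 for *F11r*, −2.21 for *Jam3*, −1.35 for *Itgav* and −1.18 for *Itgb2*. Of the 13 mesothelial and fibroblast markers, 11 were also lower on LPS replicate 1 than on LPS replicate 2, among them *Dcn* (15.54 against 17.48, with 17.09 and 17.37 on the PBS arrays). The 2 exceptions were *Col1a1* (8.94 against 8.36) and *Krt8* (11.55 against 4.88, with 4.92 and 4.86 on the PBS arrays). Between the PBS arrays the list was mixed, with 8 markers lower on replicate 1 and 5 higher, and *Upk3b* and *Wt1* were higher on replicate 2 in both groups. *Itgb7*, *Icam2*, *Itgb1* and *Selplg* were higher on replicate 1 in both groups, as were the macrophage markers *Adgre1* (16.29 and 15.15 with PBS, 16.67 and 15.76 with LPS) and *Marco* (15.79 and 13.60, then 17.08 and 15.70). Of the 9 macrophage markers, 8 were higher on replicate 1 with PBS and 8 with LPS. This was not particular to them: it held for 7 and 8 of 10 neutrophil, 7 and 8 of 10 endothelial and 11 and 9 of 14 T and NK cell markers. Among the peritoneal macrophage markers it held for 10 and 7 of 12, while *Gata6* was lower on replicate 1 in both groups. Among B cell markers it held for 5 and 5 of 7. It held for 6 and 4 of 10 dendritic cell, 5 and 4 of 9 mast cell and eosinophil and 3 and 3 of 7 platelet markers. These 8 adhesion genes were picked for this pattern after their values were seen. The part of cell composition in their differences was not tested.

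**Figure D4:**
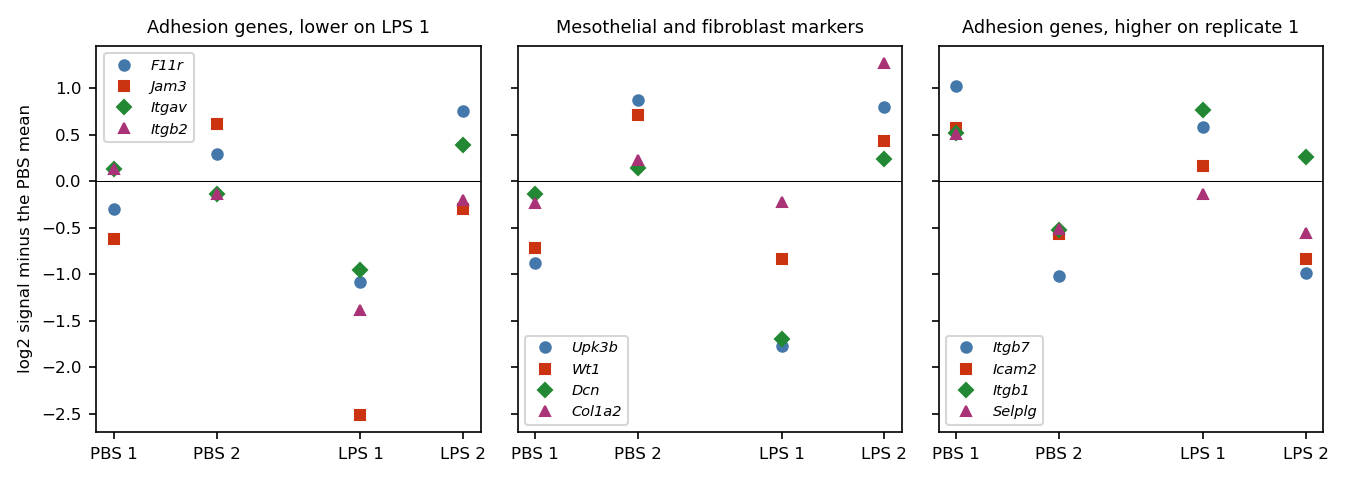
log2 signal minus the mean of the 2 PBS arrays, on each of the 4 arrays, for 4 adhesion genes that were lower on LPS replicate 1 (left), 4 of the 13 mesothelial and fibroblast markers, picked after their values were seen (middle), and 4 adhesion genes that were higher on replicate 1 of both groups (right). *Jam3* lies lowest on LPS replicate 1, and *Dcn* and *Upk3b* are also low there.

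The 11 genes above background on no array were *Itga1*, *Itga2*, *Itga2b*, *Itga8*, *Itgb2l*, *Itgb6*, *Itgb8*, *Itgb1bp2*, *Itgb1bp3* (now *Nmrk2*), *Itgb3bp* and *Itgbl1*. Their log2 signals lay between 6.14 and 9.24 and their lowest detection p was 0.075. *Itga2b*, the alpha chain of the platelet fibrinogen receptor, and the collagen receptor chains *Itga1* and *Itga2* were thus not detectable, as was the epithelial chain *Itgb6*. The 7 platelet markers, which include *Itga2b*, summed to 105000 and 102000 with PBS and 97700 and 56000 with LPS, mostly through *Pf4*; *Gp9* was also above background on no array. *Itgb8*, whose integrin with *Itgav* releases active TGF-beta, had 6.14 and 6.21 with PBS and 7.57 and 7.48 with LPS (1.35, limma adjusted p = 0.031). Its raw signals were 72, 126, 115 and 193 on PBS 1, PBS 2, LPS 1 and LPS 2, so that the raw values of the groups overlapped and those of the normalized signals did not. No fold is given for a probe below background in both groups, and, among other alternatives, *Itgb8* did not pass with 75th percentile scaling (0.99, adjusted p = 0.264), with cyclic loess (1.36, adjusted p = 0.0535) or without any 1 of the 4 arrays (adjusted p between 0.066 and 0.184).

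Of the 5 genes that share only the symbol prefix, 0 passed and 1 was above background. *Itgb1bp1*, which encodes ICAP-1, a protein that binds the beta-1 tail, had 13.50 and 14.36 with PBS and 13.63 and 12.86 with LPS (−0.68, adjusted p = 0.346). Its dimmer probe, above background on all arrays, differed by −0.03.

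The wider adhesion machinery was followed through 4 lists, whose counts stand beside the 3.22% of all genes that were higher and the 2.32% that were lower. Of 38 genes for integrin activators and adaptors, 2 rose and 1 fell, and the median difference was −0.16 against 0.04 over all genes. *Zyx*, a focal adhesion protein, had 13.34 and 13.73 with PBS and 15.06 and 15.78 with LPS (1.89, limma adjusted p = 0.0417), and *Ptk2b*, the kinase Pyk2 that acts downstream of integrins in macrophages, had 11.74 and 11.67 with PBS and 12.97 and 13.17 with LPS (1.37, adjusted p = 0.0322). *Tns1*, which links integrin tails to actin, had 11.66 and 12.01 with PBS and was not above background with LPS (8.46 and 8.83). It was at least 6.36-fold lower (limma adjusted p = 0.00664). None of the 43 extracellular ligands of integrins and CD44 passed the limma test in either direction, and the median was 0.34. Before adjustment 6 of the 43 had a limma p under 0.05, each with a higher signal. Over all genes 25.9% had such a p in either direction, and 2388 of 19938 had it with a higher signal.

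Of 42 other cell adhesion molecules, 1 rose and 0 fell, with a median of 0.11. This was *Madcam1*, the mucosal ligand of alpha4beta7, with 9.45 and 9.52 with PBS and 10.84 and 11.20 with LPS (1.54, limma adjusted p = 0.0307). Of 20 sheddases and enzymes that act on adhesion molecules, 3 rose and 2 fell, with a median of 0.11. The collagenase *Mmp13* had 13.46 and 12.44 with PBS and 16.58 and 16.76 with LPS (3.72, 13.2-fold, adjusted p = 0.0119). *Mmp2*, a gelatinase, was higher by 1.66 (adjusted p = 0.0197), and *Mmp14*, a membrane-bound protease that cleaves CD44 and activates *Mmp2*, by 1.55 (adjusted p = 0.0225). *Gcnt1*, the glycosyltransferase that builds the glycans through which PSGL-1 binds selectins, had 14.63 and 14.54 with PBS and 12.58 and 12.003 with LPS (−2.29, limma adjusted p = 0.0171). *Adam8*, a leukocyte metalloprotease known to shed adhesion molecules, had 18.41 and 18.12 with PBS and 16.35 and 16.61 with LPS (−1.79, adjusted p = 0.0224). In each of these 9 genes the groups did not overlap.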

How the data were processed

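RNA of 2 PBS and 2 LPS samples of peritoneal macrophages was measured on single-colour (Cy5) arrays. The authors deposited raw intensity values per probe and array, with a detection p-value and a flag score for every spot. What a flag means, the scanner and the background method: not given in the sources used here. No probe of the adhesion genes carried a flag. The signals were taken as background-subtracted because 60 lie at or below 0, all on LPS replicate 1. A second deposited table holds the same intensity times 1 constant per array, 0.869 and 0.972 for PBS and 1.29 and 0.959 for LPS, and was used as an alternative.

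Symbols were updated through the mouse RefSeq table (17486 of 19962 were current, 1905 updated and 571 kept). Left out were 246 probes with several symbols and 3362 with none, and each of the 2502 genes with several probes was read from its brightest, by mean log2 signal. Signals were quantile-normalized without a further background correction and converted to log2 with no floor, no filter and no pseudocount. Tests were made over 19938 genes in limma 3.58.1 (lmFit, then eBayes; R 4.3.3, statmod 1.5.0), and p-values were adjusted after Benjamini-Hochberg. Each gene had 2 residual degrees of freedom besides the 3.11 of the prior, and precision is limited by the number of arrays. The limma step was tested on simulated data with known differences. For arrays the methods state neither a normalization nor a test. Their t-test for pairs of groups served as an alternative. Folds written as "at least" take, for the dim group, the probe's signal or each array's lowest value above background, whichever is higher.

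The adhesion genes and the gene lists were chosen with earlier results of these data known. Every adhesion gene past the test or above background on at least 1 array is named with its values, and of each related list up to 5 genes past the test with the largest change. Marker genes of other cell types named with a value were chosen after their values were seen. Other alternatives covered scaling, background correction, dim and flagged probes, averaging a gene's probes, a block for the replicate number, the variance model and dropping single arrays.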

Additional observations from a re-analysis of the deposited data

How the results depend on the processing

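The rises of *Icam1* and *Vcam1* kept their direction in all 15 alternatives, between 3.35 and 3.76 for *Icam1* and between 3.96 and 4.81 for *Vcam1*. They passed in 13 and 12 of them. The exceptions were the t-test with Benjamini-Hochberg adjustment, for both, and leaving out a PBS array. Of the 35 adhesion genes named with values, 20 kept their sign in all alternatives. Over all genes the count past the test was 1104, and it was 529 with 75th percentile scaling, 438 with the second deposited table, 0 with the t-test (3719 at an unadjusted p under 0.05), 432 without scaling between arrays (an alternative chosen after seeing the data) and between 64 (without PBS replicate 2) and 1032 when 1 array was left out. The share of these that were higher was 58.2%, but 75.2% with 75th percentile scaling, 74.7% with the second table, 67.3% with cyclic loess, 93.4% and 96.9% without PBS replicates 1 and 2, 73.1% without LPS replicate 1, and 39.6% without LPS replicate 2, where 409 genes were higher and 623 lower. Without scaling, the median of all genes moved to −0.35. The number of adhesion genes that were higher was 3, 0 with the t-test and from 0 to 2 when 1 array was left out, with 0 without PBS replicate 2 and 1 without PBS replicate 1. The number whose LPS arrays lay on 1 side was 26, and 15 without scaling. The 9 genes of the related lists became 4 with the second table, 0 with the t-test, 3 without scaling and 0 to 14 when 1 array was left out (0 without PBS replicate 2, 14 without LPS replicate 2). The causes of these shifts were not tested.

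With the replicate number as a block, 1 adhesion gene was lower (*Itga10*, −1.74, adjusted p = 0.0317), and 1165 genes passed in all. The deviations of PBS and LPS arrays with the same number correlated at 0.24, but the labels do not pair the samples and there are only 2 pairs, so this is a hint at most.

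Differences that turned sign, none of which passed either way, were as follows. With 75th percentile scaling they were *Itgam* 0.25, *Ninj1* 0.021 and *Selplg* 0.005. With cyclic loess they were *Icam4* −0.03, *Icam5* −0.076, *Itgam* 0.12 and *Itgb4* −0.10, and with the second table *Itgam* 0.18 and *Itgb4* −0.015. With the mean of a gene's probes they were *Alcam* −0.16 and *Selplg* 0.14. Without scaling they were *Icam4* −0.21, *Icam5* −0.26, *Itga3* −0.18, *Itgad* −0.075, *Itgb3* −0.14 and *Itgb4* −0.29. When 1 array was left out, the difference ranged from −0.92 to 0.23 for *Icam2*, from −0.08 to 0.25 for *Icam4*, from −0.12 to 0.18 for *Icam5*, from −0.34 to 0.013 for *Itgam*, from −0.95 to 0.39 for *Itgav*, from −0.007 to 1.05 for *Itgb1*, from −0.57 to 0.64 for *Itgb4*, from −1.26 to 0.81 for *Itgb7*, from −1.10 to 0.75 for *F11r* and from −0.88 to 0.18 for *Selplg*. Signal over background limits the 11 adhesion genes above background on no array, for which no change can be stated.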
